A study of Danio rerio with 30 samples.

Results

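Translation factors are the proteins that carry a ribosome through its work on an mRNA, and their genes are named *eif* for initiation and *eef* for elongation in zebrafish. The genes described here were those whose listed name begins with *eif* or *eef* followed by a digit. There were 73 such genes of 14648 in the triplicate experiment, 59 *eif* and 14 *eef*. The preliminary experiment had the same 73 at 21 hpf, and 72 entries of 31874 with 71 names at 18 hpf, where the genes were annotated differently. Over both experiments 84 distinct names were found, of which 79 are current RefSeq symbols and 4 are older names of current genes. Of the 73 genes, 64 encode factors or their relatives, such as *eif4a3* and *eif1ad*, and the others encode kinases, binding proteins and modifying enzymes. The comparisons ask how far transcript levels depend on each of the Tbx5 paralogues, transcription factors known for their roles in the heart and the pectoral fin. All embryos were of the *AB strain. In the triplicate experiment, embryos injected at the 1-cell stage with morpholinos, antisense oligonucleotides that block a chosen transcript, were Tbx5a-deficient, Tbx5b-deficient or, with both morpholinos, double-deficient, and were compared with wildtype embryos at 21 and at 18 hpf (hours post fertilization). Each of these 8 groups had 3 libraries of 10 pooled embryos whose eyes had been removed, and the deposited values hold 1 pooled value per group. In the preliminary experiment, Tbx5a-deficient, Tbx5b-deficient and wildtype embryos were each sequenced as a single library of 10 whole embryos per stage, which makes 6 libraries. No control injection is named for wildtype embryos in the sources used here, so an effect of injection cannot be told apart from the loss of a Tbx5 paralogue, and whole embryos mix all cell types. The 11 names found only at 18 hpf in the preliminary experiment include *eif2c3b* and *eif2c4*, older names of the Argonaute genes *ago3b* and *ago4*, which are not initiation factors.

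During initiation, eIF2 brings the initiator tRNA to the small ribosomal subunit, eIF3 holds the complex together on that subunit, and the eIF4F proteins, cap-binding eIF4E, scaffold eIF4G and helicase eIF4A, load the mRNA. eIF1 and eIF1A help to choose the start codon, eIF5 is the GTPase activator of eIF2, and eIF5B is the GTPase that joins the large subunit. During elongation, the GTPase eEF1A delivers aminoacyl-tRNA, the eEF1B subunits recharge eEF1A with GTP, and the GTPase eEF2 moves the ribosome on by a codon. Many of these mRNAs begin with a pyrimidine-rich tract and are translated under the control of mTOR, as ribosomal protein mRNAs are, a control that RNA levels do not measure.

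All values are FPKM, fragments scaled by transcript length and by the fragments of the library, so that levels can be compared between genes. Values in parentheses after a level are the bounds that the authors' software gave, whose confidence level is not stated. A pooled value holds no spread between libraries and the preliminary groups have 1 library each, so no SD or test was possible, and no difference given here has a replicate check. A gene was kept in a comparison when its values were usable in both groups and at least 1 FPKM in 1 of them. It was called when, in addition, the log2 ratio of FPKM plus 1 was at least 1 in size and the 2 groups had separate bounds. The fold changes stand on this log2(FPKM + 1) scale, which understates those of low genes. Among the members of at least 10 FPKM, the upper bound was at the median 2.55 to 2.74 times the lower bound within a triplicate group. Bounds of that width overlap where 2 groups differ by less, which is not a test of the difference.

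Read numbers of single libraries are unknown. The study gives a total per experiment, which was higher for the preliminary one, though it had fewer libraries. Over all genes, FPKM added up to 874236 with Tbx5a deficiency, 968416 with Tbx5b deficiency and 948270 with both at 21 hpf, against 1293230 in wildtype embryos. At 18 hpf these sums were 1057140, 859057 and 1164860 in the deficient groups in the same order, against 1073540 in wildtype embryos. The targeted gene *tbx5a* lay between 0.982 and 1.90 FPKM over the 8 triplicate groups, whose bounds overlapped, which does not check their labels. In the preliminary experiment it had 16.1 (11.8 to 20.4) FPKM in the library labelled Tbx5a-deficient against 2.51 (1.67 to 3.35) in that labelled wildtype at 21 hpf. At the earlier stage the value was 5.30 (3.18 to 7.42) in the library labelled Tbx5b-deficient against 1.11 (0.630 to 1.59) in that labelled wildtype. For *tbx5b* the library labelled Tbx5b-deficient had 2.45 FPKM against 1.39 in that labelled wildtype at 21 hpf. At 18 hpf the values were 0.478 against 0.325, and the bounds overlapped at both stages. The study describes the Tbx5b morpholino as one that blocks translation, so *tbx5b* RNA need not fall. The preliminary libraries are therefore named by their labels throughout, and no triplicate value rests on them. Markers of muscle, heart, blood and neural cells were present in every group, while the epidermal marker *krt4* had no usable value in any. The 4 eye genes checked summed to at most 12.5 FPKM in the triplicate groups, whose eyes had been removed, and to between 24.9 and 82.7 in the preliminary libraries.

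Transcripts of translation factors were abundant in these embryos. Their FPKM summed to between 1.62% and 1.76% of the sum over all genes in the 8 triplicate groups. Between 33 and 36 of the 73 genes reached 100 FPKM in a group, or 45.2% to 49.3% of them, against 6.45% to 7.52% of all genes. Only genes with usable values could be ranked. The 4 highest of them on average over the 8 groups were *eef2b* at 1681 to 3477 FPKM, *eif5a* at 1128 to 1807, *eef1g* at 1165 to 1799 and *eef1b2* at 807 to 1503. Neighbours in this order overlapped in their ranges. At the low end stood *eef1a1a*, *eef1a1b*, *eef1a2* and the kinase gene *eif2ak2*, none of which reached 1 FPKM in any group. *eef1a1l1* had no usable value in these groups and is not placed in this order. The wildtype levels of the 2 experiments, which were normalized separately, had a Spearman's rho of 0.966 across 67 members at 21 hpf and 0.950 across 54 at 18 hpf. These are correlations across genes, which share both libraries and are not replicates. How reads shared by near-identical paralogues were counted is not given in the sources used here, so levels within a pair of paralogues are uncertain.

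**Figure D1:**
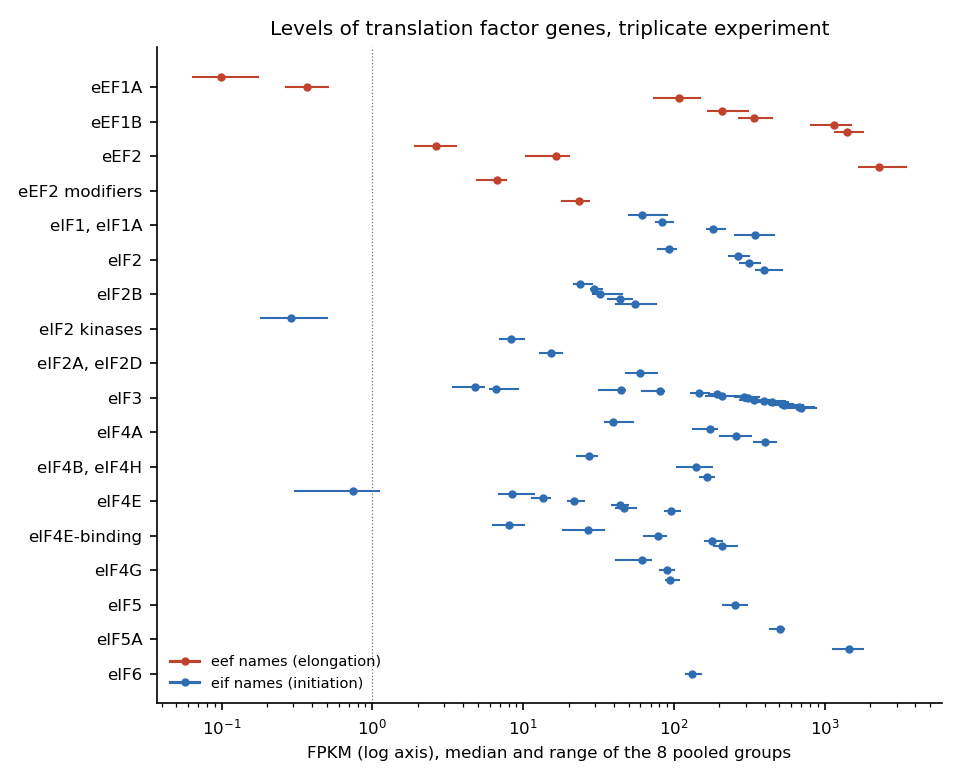
FPKM (log axis) of each translation factor gene in the triplicate experiment by role, where a point is the median and a line the range over the 8 pooled groups. The eEF2, eEF1B and eIF5A roles each hold a gene above 1000 FPKM, and a dotted line marks 1 FPKM. *eef1a1l1*, without a usable value, and *eef1a2*, with a median of 0, are not drawn.

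eEF1A, the GTPase that carries aminoacyl-tRNA, could not be followed through its main embryonic gene. This gene, *eef1a1l1*, listed at chromosome 19 from 43523417 to 43526740 of the build used with the triplicate values, had no usable value in any of the 8 triplicate groups, where the software marked it as holding too much data and listed 0. The same held in 5 of the 6 preliminary libraries. The exception, at 21 hpf, was the library labelled Tbx5b-deficient, where its level was 5924 (4078 to 7769) FPKM, above every other translation factor in that library. The gene *eef1a1l2*, at chromosome 19 from 43527015 to 43539280, begins 274 bp past it, and its values may hold reads of its neighbour, which was not tested. The build of these positions is Zv9 in the study's methods and GRCz10 in the submitters' processing notes, and was not settled. At 21 hpf *eef1a1l2* had 81.1 FPKM with Tbx5a deficiency, 103 with Tbx5b deficiency and 114 with both, against 149.6 in wildtype embryos. At 18 hpf it had 145 FPKM with Tbx5a deficiency, 74.1 with Tbx5b deficiency and 139.95 with both, against 93.9 in wildtype embryos. Its value in Tbx5a-deficient embryos thus lay below wildtype at 21 hpf and above it at 18 hpf, and its bounds overlapped in all 6 comparisons. The log2 ratios were -0.88 with Tbx5a deficiency, -0.54 with Tbx5b deficiency and -0.39 with both at 21 hpf. They were 0.62 with Tbx5a deficiency, -0.34 with Tbx5b deficiency and 0.57 with both at 18 hpf. Scaling the groups to equal sums of FPKM, an alternative chosen after seeing the data, turned the double-deficient ratio at 21 hpf to 0.05 and kept the other signs. Sets of 3 ratios are given in this order of groups throughout. The genes *eef1a1a* and *eef1a1b*, at 0.266 to 0.510 and 0.0642 to 0.175 FPKM, and *eef1a2*, the muscle and neuronal paralogue of mammals, which reached at most 0.00849 FPKM, were too low to compare.

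eEF1B is the exchange factor of eEF1A, built from an alpha subunit (*eef1b2*), delta subunits (*eef1da* and *eef1db*) and the structural gamma subunit (*eef1g*). At 21 hpf *eef1g*, at chromosome 14 from 26421635 to 26431184, had 1221 FPKM with Tbx5a deficiency, 1405 with Tbx5b deficiency and 1349 with both, against 1799 in wildtype embryos. The catalytic *eef1b2*, at chromosome 6 from 12967475 to 12972720, had 1063 FPKM with Tbx5a deficiency, 1193 with Tbx5b deficiency and 1147 with both, against 1503 in wildtype embryos. The 4 eEF1B genes were each below wildtype in each deficient group at this stage, at medians of -0.54 with Tbx5a deficiency, -0.34 with Tbx5b deficiency and -0.42 with both, which turned to 0.02, 0.07 and 0.02 with equal sums. The single log2 ratios were -0.56, -0.36 and -0.42 for *eef1g* and -0.50, -0.33 and -0.39 for *eef1b2*. They were -0.53, -0.28 and -0.43 for *eef1da* and -0.60, -0.43 and -0.71 for *eef1db*. The bounds overlapped for each gene in each group. At 18 hpf *eef1b2* had 1004 FPKM with Tbx5a deficiency, 807 with Tbx5b deficiency and 1195 with both, against 1151 in wildtype embryos. *eef1g* had 1391 FPKM with Tbx5a deficiency, 1165 with Tbx5b deficiency and 1492 with both, against 1472 in wildtype embryos. Only Tbx5b-deficient embryos had all 4 eEF1B genes below wildtype there, at a median log2 ratio of -0.32, which equal sums brought to 0.00. The delta paralogues stood close to each other, *eef1db* at 1.18 to 2.11 times *eef1da* over the 8 groups with overlapping bounds in each.

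Transcripts of eEF2, the GTPase of translocation, were almost wholly those of *eef2b*. This gene held 98.7% to 99.6% of the FPKM of the eEF2 genes in the triplicate groups, and its bounds lay apart from those of *eef2a.1* in 6 of the 8. Its locus is listed at chromosome 2 from 56687717 to 57133495, which is 445779 bp long and overlaps *sbno2a*, *slc25a42*, *mir7148*, *mbd3a* and *uqcr11*, so its value is uncertain. At 21 hpf it had 1681 (428 to 2933) FPKM with Tbx5a deficiency, 2409 (468 to 4350.3) with Tbx5b deficiency and 2159 (422 to 3895) with both, against 3101 (0 to 7118) in wildtype embryos. At 18 hpf it had 3477 (0 to 7209), 1862 (469 to 3254) and 3275 (84.4 to 6465) FPKM in the deficient groups in the same order, against 2174 (443 to 3905) in wildtype embryos. With lower bounds of 0 in both Tbx5a-deficient embryos at 18 hpf and wildtype embryos at 21 hpf, none of these differences could be resolved. The tandem pair *eef2a.1* and *eef2a.2* on chromosome 22 was far lower. *eef2a.1* had 17.5 FPKM with Tbx5a deficiency, 11.5 with Tbx5b deficiency and 15.5 with both, against 10.5 in wildtype embryos at 21 hpf, log2 ratios of 0.69, 0.13 and 0.53, while those of *eef2b* were -0.88, -0.36 and -0.52. *eef2a.1* thus lay above wildtype where *eef2b* lay below, with overlapping bounds for both, and with equal sums the ratio of *eef2b* turned to 0.05 in Tbx5b-deficient embryos. *eef2a.2* had 1.92 to 3.57 FPKM over the 8 groups, and its ratio of -0.52 was the lowest of all members in Tbx5a-deficient embryos at 18 hpf. The kinase gene *eef2k*, whose product slows elongation by phosphorylating eEF2, lay between 18.1 and 27.5 FPKM over the 8 groups.

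**Figure D2:**
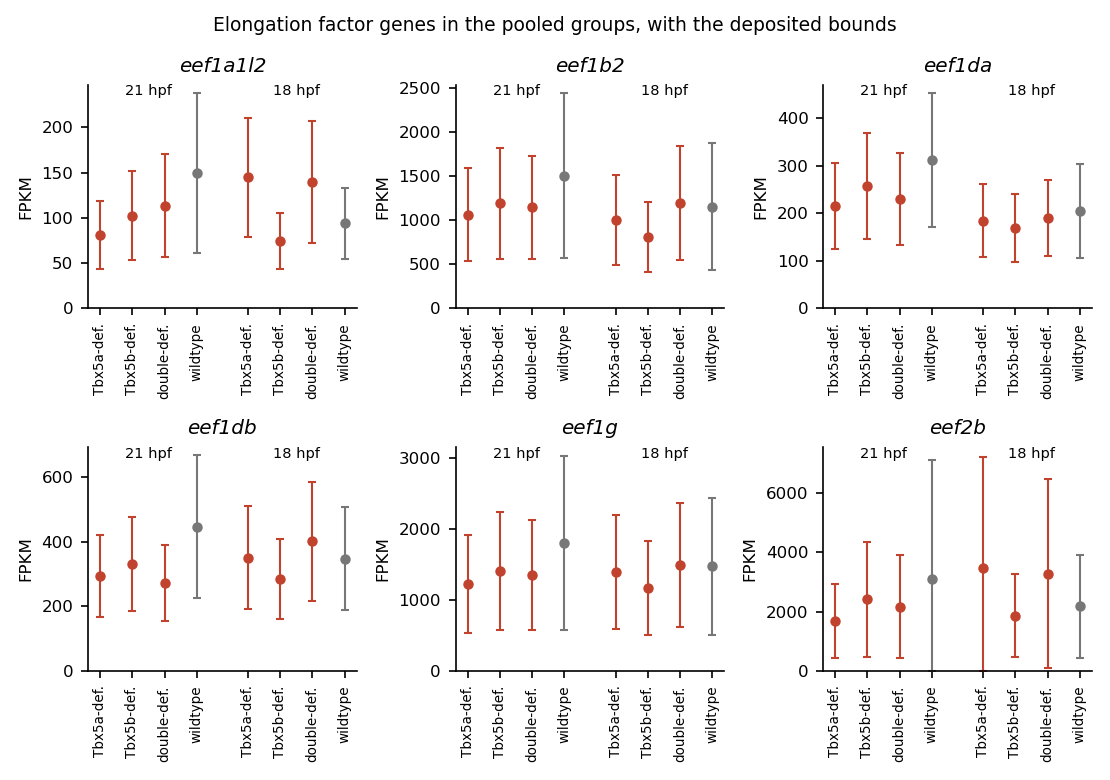
FPKM of 6 elongation factor genes in the 8 pooled groups of the triplicate experiment, with 21 hpf left of 18 hpf, deficient groups in red and wildtype in grey, and bars from the deposited lower to upper bound. The bars of each deficient group overlap those of wildtype at the same stage in each panel, and those of *eef2b* reach 0 in 2 groups.

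In each comparison of deficient with wildtype embryos in the triplicate experiment, 68 of the 73 genes were kept, 58 *eif* and 10 *eef*, and none was called. The bounds of no kept member lay apart, which is not set against a share over all genes here and is not read as a trait of the members. Among all genes tested at 21 hpf, 0.298% were called with Tbx5a deficiency, 0.224% with Tbx5b deficiency and 0.277% with both. At 18 hpf the shares were 0.255%, 0.254% and 0.237%. A share of this size corresponds to less than 1 of 68 genes, so a count of 0 does not set the translation factors apart.

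The classes of elongation and initiation factors follow the gene names alone. The elongation class thus includes the modifying enzyme genes *eef2k* and *eef2kmt*. The initiation class includes *eif5a*, *eif5a2*, the eIF2 kinase gene *eif2ak1* and the genes of eIF4E-binding proteins. At 21 hpf the median ratios of both classes lay below 0 in the 3 deficient groups with the values as deposited, though not with equal sums. The elongation factors had median log2 ratios of -0.51 with Tbx5a deficiency, -0.34 with Tbx5b deficiency and -0.39 with both. The initiation factors had -0.32 with Tbx5a deficiency, -0.21 with Tbx5b deficiency and -0.32 with both. All kept genes had -0.02 with Tbx5a deficiency, -0.04 with Tbx5b deficiency and -0.03 with both. Of the 68 members, 50 with Tbx5a deficiency, 55 with Tbx5b deficiency and 57 with both lay below 0, while the shares of all genes below 0 were 52.0%, 57.5% and 54.4%. The 3 comparisons share the wildtype group and are not independent of each other. With equal sums of FPKM the medians of all genes shifted to 0.46, 0.32 and 0.35. Those of the elongation factors turned to 0.05, 0.07 and 0.05 and those of the initiation factors to 0.23, 0.19 and 0.12. The direction against wildtype thus depended on the scaling, which moves all genes of a group alike. Abundant genes as a whole also lay below the median of all genes. Members between 100 and 1000 FPKM had medians of -0.53, -0.29 and -0.45, against -0.35, -0.26 and -0.34 for all genes of that level, and the genes of at least 1000 FPKM had -0.71, -0.49 and -0.54. Members between 10 and 100 FPKM had -0.01, -0.07 and -0.18, against -0.07, -0.07 and -0.10. The 3 blood markers, all present, summed to 3338 FPKM with Tbx5a deficiency, 4117 with Tbx5b deficiency and 4417 with both at 21 hpf, against 4731 in wildtype embryos. The 2 neural markers, both present, summed to 48.3 FPKM with Tbx5a deficiency, 46.6 with Tbx5b deficiency and 55.6 with both, against 39.4 in wildtype embryos. The 2 muscle markers found, of 3 listed, summed to 316, 332 and 357 FPKM in the same order, against 307 in wildtype embryos. Those of heart summed to 53.8, 55.3 and 64.3 FPKM, against 63.3 in wildtype embryos. As deposited, the blood sums thus lay below wildtype, the neural and muscle sums above it and the heart sums on both sides. The marker values were not scaled to equal sums, and their part in the result was not tested. The sums of all FPKM given above differed as well, and in whole embryos fewer cells of a type cannot be told apart from less RNA per cell.

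At 18 hpf the medians lay on both sides of 0, and no deficient group was tested against another. In Tbx5b-deficient embryos the elongation factors had a median log2 ratio of -0.25 and the initiation factors -0.10, against -0.01 for all genes, and 50 of 68 members lay below 0. In Tbx5a-deficient embryos the medians were -0.05 for elongation, -0.02 for initiation and -0.04 for all genes, and 38 of 68 members lay below 0. In double-deficient embryos they were -0.04, 0.04 and -0.03 in the same order, and 29 of 68 lay below 0. The median of all genes was below 0 in each deficient group, so most of all genes lay below 0 as well. Their exact share is not given here. With equal sums the elongation median turned to 0.07 in Tbx5b-deficient embryos, and the initiation median turned to 0.21 with Tbx5b deficiency and to -0.08 with both. Here too the scaling moves all genes of a group nearly alike. Members between 100 and 1000 FPKM had medians of 0.01, -0.26 and 0.12, against -0.05, -0.22 and 0.05 for all genes of that level. The genes of at least 1000 FPKM had -0.07, -0.45 and 0.15. At this stage the 3 blood markers summed to 1660.1 FPKM with Tbx5a deficiency, 1387 with Tbx5b deficiency and 1877 with both, against 1996 in wildtype embryos. The 2 muscle markers found, of 3 listed, summed to 237 FPKM with Tbx5a deficiency, 183 with Tbx5b deficiency and 240.3 with both, against 221 in wildtype embryos. As deposited, both sums were thus lowest with Tbx5b deficiency, as was the sum of all FPKM at this stage. The heart markers summed to 28.6, 28.0 and 31.3 FPKM in the same order, against 32.9 in wildtype embryos. Those of neural cells summed to 51.4, 49.8 and 49.5 FPKM, lowest with both, against 53.8 in wildtype embryos. The marker values were not scaled to equal sums, and their part in the result was not tested. The elongation median lay below the initiation median in all 6 comparisons, by 0.03 to 0.19 on the log2 scale, with 10 genes in the smaller class, but other settings turned this order in 5 of the 6. Without a filter on FPKM the difference was 0.24 with Tbx5a deficiency and 0.07 with both at 21 hpf, and 0.09 with Tbx5b deficiency at 18 hpf. With means in place of medians it was 0.01 with Tbx5a deficiency and 0.04 with both at 21 hpf, and 0.06 with Tbx5a deficiency and 0.03 with both at 18 hpf. Among members of at least 100 FPKM it was 0.02 with both at each stage. The order of the classes is therefore not a stable feature of these comparisons.

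**Figure D3:**
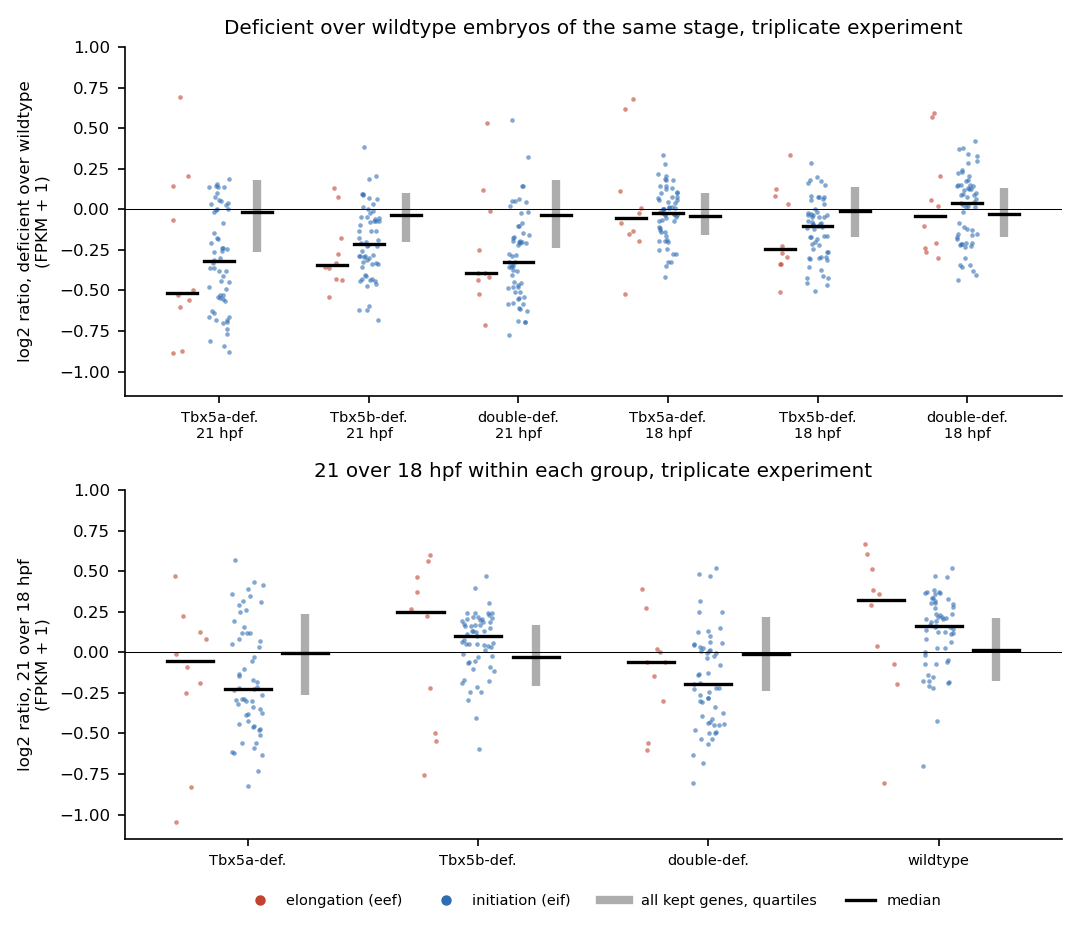
Log2 ratios of FPKM plus 1 for kept elongation (red) and initiation (blue) factor genes in the triplicate experiment, deficient over wildtype above and 21 over 18 hpf below, where a point is a gene, a black line a median and a grey bar the quartiles of all kept genes. At 21 hpf both medians lie below that of all genes in the 3 deficient groups, and in the lower panel the red median lies above the blue in each group.

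Among the factors of start codon choice, *eif1b* was the highest, and *eif1axb* stood 1.90 to 2.57 times above its paralogue *eif1axa*. At 21 hpf *eif1b*, at chromosome 19 from 5501567 to 5505124, had 259 FPKM with Tbx5a deficiency, 334 with Tbx5b deficiency and 325 with both, against 464 in wildtype embryos. At 18 hpf it had 354 FPKM with Tbx5a deficiency, 253 with Tbx5b deficiency and 386 with both, against 360.1 in wildtype embryos. The log2 ratios of *eif1b* were -0.84, -0.47 and -0.51 at 21 hpf and -0.02, -0.51 and 0.10 at 18 hpf, with overlapping bounds. With equal sums its ratios at 21 hpf stayed below 0, at -0.28, -0.06 and -0.06. The gene *eif1ad*, whose product shares the eIF1A domain, had 65.9 FPKM with Tbx5a deficiency, 58.1 with Tbx5b deficiency and 52.1 with both, against 89.8 in wildtype embryos at 21 hpf. Its ratio in double-deficient embryos, -0.77, was the lowest of that comparison.

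The eIF2 subunits stood well above the subunits of eIF2B, which exchanges the nucleotide on eIF2. Per subunit, eIF2 averaged 338 FPKM with Tbx5a deficiency, 361 with Tbx5b deficiency and 321 with both, against 437 in wildtype embryos at 21 hpf. eIF2B averaged 32.2 FPKM with Tbx5a deficiency, 36.4 with Tbx5b deficiency and 35.0 with both, against 45.1 in wildtype embryos. The ratio of the averages stayed between 8.38 and 10.5 over the 8 groups. In the preliminary libraries labelled Tbx5a-deficient, Tbx5b-deficient and wildtype it was 9.63, 8.99 and 9.33 at 21 hpf. At 18 hpf, where the annotation differed, it was 19.9, 18.2 and 18.0 in the same order of labels. The alpha subunit came mostly from *eif2s1b*, at 2.26 to 3.84 times *eif2s1a*, with bounds apart in 6 of the 8 groups. The beta subunit gene *eif2s2*, at chromosome 6 from 49997128 to 50013273, had 403 FPKM with Tbx5a deficiency, 428 with Tbx5b deficiency and 350.2 with both, against 524 in wildtype embryos at 21 hpf. Among the 5 eIF2B genes *eif2b2* was the highest, with 41.2 FPKM with Tbx5a deficiency, 48.8 with Tbx5b deficiency and 51.9 with both, against 66.7 in wildtype embryos at 21 hpf. The eIF2B genes had median log2 ratios of -0.41, -0.28 and -0.36 at 21 hpf, which turned to 0.14, 0.13 and 0.08 with equal sums. In double-deficient embryos at 18 hpf all 5 lay above wildtype, at a median of 0.29, or 0.17 with equal sums, where *eif2b1* and *eif2b4* turned to -0.03 and -0.10. Of the kinases that phosphorylate eIF2 in stress, *eif2ak1*, the heme-regulated one, had 7.07 to 10.1 FPKM over the 8 groups, and *eif2ak2*, which senses double-stranded RNA, 0.183 to 0.504. The factors *eif2a* and *eif2d*, which can deliver tRNA without eIF2, had 48.1 to 76.9 and 13.0 to 18.2 FPKM. The ratio of *eif2d* in Tbx5b-deficient embryos at 18 hpf, 0.29, was among the highest of that comparison, as was that of *eef2k*, 0.34.

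eIF3 was represented by 13 subunits from 16 genes, and transcripts of its subunits were not equal in amount. In wildtype embryos they spanned 129.9 to 881 FPKM at 21 hpf and 123 to 758 at 18 hpf, a 6.78- and 6.15-fold span. Over the 8 groups the span was 4.40- to 9.18-fold. Subunits e and f were the highest in each group. The loosely bound subunit j was the lowest, except in wildtype embryos at 21 hpf, where subunit a, the largest subunit (*eif3s10*), was the lowest. The paralogues were unequal too, *eif3ea* holding 98.8% to 99.2% of subunit e and *eif3ha* 98.1% to 99.0% of subunit h, with bounds apart in all 8 groups. For subunit j, *eif3ja* was 1.56 to 2.15 times *eif3jb*. The highest gene on average was *eif3f*, at chromosome 1 from 9612916 to 9619931, which had 543 FPKM with Tbx5a deficiency, 647 with Tbx5b deficiency and 618 with both, against 881 in wildtype embryos at 21 hpf. At 18 hpf *eif3f* had 748 FPKM with Tbx5a deficiency, 548 with Tbx5b deficiency and 874 with both, against 758 in wildtype embryos.

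The 16 eIF3 genes had median log2 ratios of -0.53 with Tbx5a deficiency, -0.31 with Tbx5b deficiency and -0.47 with both at 21 hpf, and with equal sums of 0.03, 0.08 and -0.04. At 18 hpf the medians were 0.01, -0.21 and 0.14, or 0.04, 0.08 and 0.02 with equal sums. As deposited, 12, 13 and 14 of the 16 lay below wildtype at 21 hpf. Among them *eif3g*, whose product binds RNA, was the lowest in Tbx5a-deficient embryos, and *eif3k* with Tbx5b deficiency and with both. At 21 hpf *eif3g* had 297 FPKM with Tbx5a deficiency, 356 with Tbx5b deficiency and 372 with both, against 547 in wildtype embryos, log2 ratios of -0.88, -0.62 and -0.55. *eif3k* had 177 FPKM with Tbx5a deficiency, 194 with Tbx5b deficiency and 193 with both, against 312 in wildtype embryos at that stage, log2 ratios of -0.81, -0.68 and -0.69. Both genes stayed below 0 with equal sums, at -0.31, -0.20 and -0.11 for *eif3g* and -0.25, -0.27 and -0.25 for *eif3k*. The scaffold subunit gene *eif3s10* had ratios of 0.16, 0.18 and 0.06, *eif3ja* 0.00, -0.07 and -0.20 and *eif3jb* 0.03, 0.02 and 0.02, and the bounds of each overlapped. *eif3hb*, the minor subunit h gene, had 3.43 to 5.49 FPKM over the 8 groups. At 18 hpf *eif3jb* had 31.6 FPKM with Tbx5a deficiency, 39.6 with Tbx5b deficiency and 33.4 with both, against 42.5 in wildtype embryos, with ratios of -0.42, -0.10 and -0.34, while *eif3k* had ratios of 0.28, -0.45 and 0.34. With Tbx5a deficiency, alone or with that of Tbx5b, at 18 hpf *eif3jb* and *eif3k* thus lay on opposite sides of wildtype, also with equal sums, with bounds that did not separate.

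**Figure D4:**
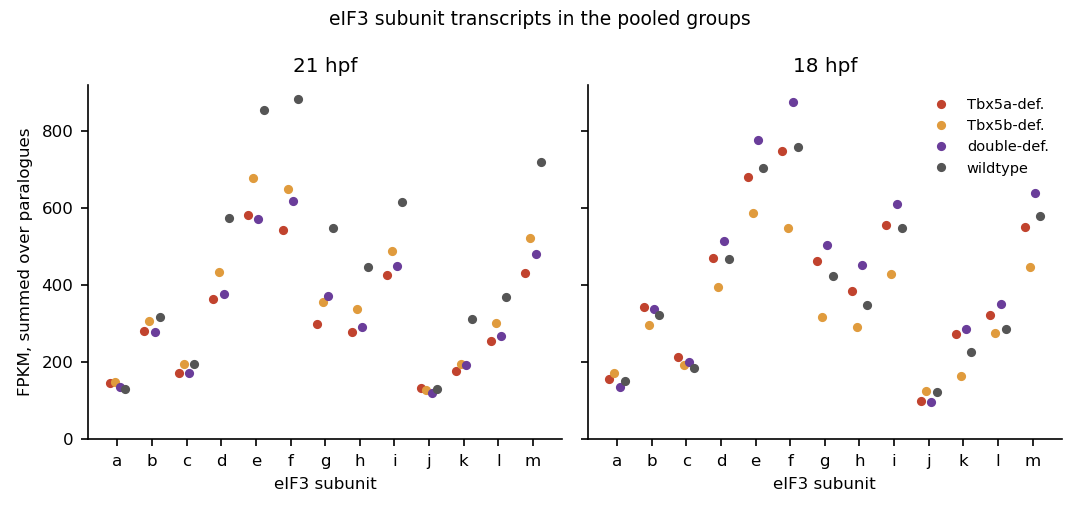
FPKM of the 13 eIF3 subunits in the pooled groups of the triplicate experiment, summed over paralogues, with 21 hpf left of 18 hpf and 1 coloured point per group, without bounds. At 21 hpf wildtype embryos stand highest for subunits such as e, f, k and m, while all 4 groups lie close for subunits a and j.

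Among the genes of the cap-binding complex and its partners, the paralogues of eIF4B were unequal in level beyond their bounds, while *eif4a1a* and *eif4a1b*, and the pair of the eIF4G relative *eif4g2*, had overlapping bounds in each group. Among the eIF4A helicases *eif4a1a*, at chromosome 7 from 26239339 to 26246896, was 1.89 to 2.81 times *eif4a1b* over the 8 groups, and had 346 FPKM with Tbx5a deficiency, 387 with Tbx5b deficiency and 341 with both, against 413 in wildtype embryos at 21 hpf. *eif4a3*, the helicase of the exon junction complex, had 201 to 326 FPKM over the 8 groups, and its log2 ratio in double-deficient embryos at 21 hpf was -0.70, or -0.25 with equal sums. Of the helicase cofactor eIF4B, *eif4bb* held 84.8% to 87.3%, with bounds apart from *eif4ba* in all 8 groups. *eif4e1c* was the highest eIF4E gene at 87.8 to 110.3 FPKM, followed by *eif4ea* at 41.2 to 56.0 and *eif4e2rs1* at 38.6 to 49.6. At 18 hpf *eif4ea* had 43.7 FPKM with Tbx5a deficiency, 56.0 with Tbx5b deficiency and 41.2 with both, against 56.0 in wildtype embryos, and its ratio of -0.43 was the lowest of the double-deficient comparison there. The germline paralogue *eif4e1b* lay near the limit of 1 FPKM, at 0.309 to 1.11. The eIF4G family included *eif4g2a* and *eif4g2b*, encoding a relative of eIF4G that lacks the eIF4E-binding part, within 1.14-fold of each other in each group. *eif4g1a*, the eIF4G scaffold gene, had 42.2 FPKM with Tbx5a deficiency, 54.2 with Tbx5b deficiency and 61.1 with both, against 41.4 in wildtype embryos at 21 hpf. At 18 hpf *eif4g1a* had 70.6 FPKM with Tbx5a deficiency, 64.5 with Tbx5b deficiency and 62.2 with both, against 68.0 in wildtype embryos. Its log2 ratios were 0.03, 0.38 and 0.55 at 21 hpf and 0.05, -0.08 and -0.13 at 18 hpf. At 21 hpf they lay above 0 under both scalings, unlike most members as deposited, and equal sums raised that in double-deficient embryos to 0.99.

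Genes for the 4E-BPs, which hold eIF4E away from eIF4G unless mTOR phosphorylates them, had a higher summed level than those of eIF4E in the triplicate groups. The sum of *eif4ebp1*, *eif4ebp2*, *eif4ebp3* and *eif4ebp3l*, set against the sum of *eif4ea*, *eif4eb*, *eif4e1b* and *eif4e1c*, gave a ratio of 2.71 with Tbx5a deficiency, 2.99 with Tbx5b deficiency and 2.86 with both, against 3.19 in wildtype embryos at 21 hpf. At 18 hpf the ratio was 3.31 with Tbx5a deficiency, 2.88 with Tbx5b deficiency and 3.15 with both, against 2.67 in wildtype embryos. The triplicate deficient groups thus lay below wildtype at 21 hpf and above it at 18 hpf, but these sums carry no bounds. In the preliminary libraries labelled Tbx5a-deficient, Tbx5b-deficient and wildtype at 21 hpf the ratio was 3.13, 3.10 and 3.04. It thus lay above wildtype for both deficient labels there. In the preliminary libraries at 18 hpf it was 0.821 in the one labelled Tbx5a-deficient, 0.762 in the one labelled Tbx5b-deficient and 0.763 in the one labelled wildtype, where *eif4e1c* was listed higher than in any triplicate group. *eif4ebp1*, at chromosome 21 from 20976518 to 20983972, had 186 FPKM with Tbx5a deficiency, 231 with Tbx5b deficiency and 186 with both, against 261 in wildtype embryos at 21 hpf. At 18 hpf *eif4ebp1* had 216 FPKM with Tbx5a deficiency, 202 with Tbx5b deficiency and 213 with both, against 207 in wildtype embryos. *eif4ebp3l* followed at 161 to 208 FPKM over the 8 groups.

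eIF5A, which carries the amino acid hypusine and acts in elongation and termination despite its name, ranked with the elongation factors in level. *eif5a*, at chromosome 24 from 26336925 to 26340200, had 1128 FPKM with Tbx5a deficiency, 1431 with Tbx5b deficiency and 1422 with both, against 1807 in wildtype embryos at 21 hpf. At 18 hpf *eif5a* had 1573 FPKM with Tbx5a deficiency, 1256 with Tbx5b deficiency and 1663 with both, against 1466 in wildtype embryos. It held 67.7% to 78.8% of the FPKM of the pair with *eif5a2*, with overlapping bounds in each of the 8 groups. *eif5*, the GTPase activator of eIF2, had 211 FPKM with Tbx5a deficiency, 263 with Tbx5b deficiency and 225 with both, against 307 in wildtype embryos at 21 hpf. *eif6*, which keeps free large subunits from joining, had 129 FPKM with Tbx5a deficiency, 127 with Tbx5b deficiency and 121 with both, against 152 in wildtype embryos at 21 hpf, and stayed within that range at 18 hpf. The log2 ratios at 21 hpf were -0.68, -0.34 and -0.35 for *eif5a*, -0.54, -0.22 and -0.45 for *eif5* and -0.24, -0.26 and -0.33 for *eif6*, and with equal sums that of *eif5a* turned to 0.08 with Tbx5b deficiency and 0.10 with both, and stayed at -0.11 with Tbx5a deficiency.

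Each triplicate group at 21 hpf was then compared with the same group at 18 hpf. As deposited, the median of the elongation factors lay above that of the initiation factors in each of the 4 groups, an order that turned in wildtype embryos without a filter on FPKM and with Tbx5b deficiency where means were used. The direction of both classes differed between groups as deposited, and it also depended on the scaling. No member was called in any group. Among all genes 1.06% were called with Tbx5a deficiency, 0.773% with Tbx5b deficiency, 1.37% with both and 0.578% in wildtype embryos. At shares of this size, an absence of calls does not set the members apart from all genes. The 21 over 18 hpf median log2 ratio of the elongation factors was -0.05 with Tbx5a deficiency, 0.25 with Tbx5b deficiency, -0.06 with both and 0.33 in wildtype embryos. That of the initiation factors was -0.22, 0.10, -0.19 and 0.16 in the same order, and that of all genes -0.01, -0.03, -0.01 and 0.01. The difference between the classes was 0.13 to 0.17, against -0.11 in wildtype embryos without a filter and -0.01 with Tbx5b deficiency by means. Markers of cell types differed between the stages as well. In wildtype embryos the blood markers summed to 4731 FPKM at 21 hpf against 1996 at 18 hpf, and the heart markers to 63.3 against 32.9. The muscle markers summed to 307 FPKM at 21 hpf against 221 at 18 hpf, and the neural markers to 39.4 against 53.8. With Tbx5a deficiency the blood sum was 3338 FPKM at 21 hpf against 1660.1 at 18 hpf, with Tbx5b deficiency 4117 against 1387 and with both 4417 against 1877. The part of these markers in the stage ratios was not tested. The 4 eEF1B genes had medians, in the order of groups given for the elongation factors, of -0.05, 0.42, -0.10 and 0.37, and with equal sums of 0.22, 0.24, 0.19 and 0.10. The 16 eIF3 genes had -0.32, 0.18, -0.42 and 0.25, and with equal sums -0.05, 0.01, -0.12 and -0.02. All members together had -0.20, 0.11, -0.15 and 0.18, and with equal sums 0.07, -0.06, 0.15 and -0.08, the opposite sign in each group. The scaling moves all genes of a group nearly alike, so these signs do not place the members among all genes. As deposited, the initiation median less that of all genes was -0.22, 0.13, -0.18 and 0.15. For the elongation median this difference was -0.05, 0.27, -0.05 and 0.31. In wildtype embryos *eef1da* had 311 FPKM at 21 hpf against 204 at 18 hpf, and *eef1a1l2* 149.6 against 93.9. In the other direction *eef2a.1* had 10.5 FPKM at 21 hpf against 19.0 at 18 hpf, and *eif4g1a* 41.4 against 68.0. These were the highest and lowest wildtype ratios, 0.60 for *eef1da*, 0.67 for *eef1a1l2*, -0.81 for *eef2a.1* and -0.70 for *eif4g1a*, and their bounds overlapped. Over all 4 groups the widest was that of *eef2b* in Tbx5a-deficient embryos, -1.05, whose 2 values carry the wide bounds given above. In Tbx5b-deficient embryos *eef2a.1* had 11.5 (6.27 to 16.8) FPKM at 21 hpf against 20.2 (11.6 to 28.7) at 18 hpf, with overlapping bounds here too.

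In the preliminary experiment no member was called either, of 69 kept at 21 hpf and 66 at 18 hpf. Among all genes at 21 hpf, 0.0772% were called for the label Tbx5a-deficient and 1.65% for the label Tbx5b-deficient. At 18 hpf the shares were 1.57% and 1.58%. At the 3 higher shares about 1 of the members would be called, so a count of 0 does not set them apart. Each library of a stage was set against the same wildtype library. At 21 hpf the library labelled Tbx5a-deficient differed little from that labelled wildtype, with all 69 ratios between -0.20 and 0.25. In the library labelled Tbx5b-deficient the elongation factors had a median of -0.20 and the initiation factors 0.08. There *eef1b2* had 760.2 (559.6 to 961) FPKM against 1129.6 (828 to 1431) in the library labelled wildtype, and *eif5* 244 (179.8 to 309) against 165 (122 to 208). At 18 hpf the medians of the elongation factors were 0.27 in the library labelled Tbx5a-deficient and 0.17 in the other deficient one, and those of the initiation factors -0.08 and -0.07, with signs that equal sums did not change. *eef1b2* had 1605 FPKM in the library labelled Tbx5a-deficient, 1286 in the one labelled Tbx5b-deficient and 962 in the one labelled wildtype, and *eef1g* had 1239 FPKM in the library labelled Tbx5a-deficient, 1007 in the one labelled Tbx5b-deficient and 896 in the one labelled wildtype. The member nearest to separated bounds was *eif4ebp1*, with 109.6 (78.9 to 140.2) FPKM in the library labelled Tbx5a-deficient, 108 (77.8 to 138) in the one labelled Tbx5b-deficient and 189.8 (138 to 242) in the one labelled wildtype. Its ratios were -0.79 and -0.81, and at 21 hpf 0.02 and 0.53. The levels of some genes differed between the tables. *eif4e1c* had 345 FPKM in the library labelled Tbx5a-deficient, 336 in the one labelled Tbx5b-deficient and 463 in the one labelled wildtype at 18 hpf, with bounds as wide as 54.7 to 871, while in the triplicate groups it had 87.8 to 110.3. Among the names found only in this table, *eif2ak3*, the kinase of endoplasmic reticulum stress, had 17.0, 15.8 and 12.6 FPKM in the libraries labelled Tbx5a-deficient, Tbx5b-deficient and wildtype, and *eif5b*, the GTPase of subunit joining, 35.5, 41.0 and 43.1. *eif2ak4*, the kinase that senses uncharged tRNA, was listed at 0 in all 3.

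The ratios of the members, as deposited, had a weak correlation of varying sign between the experiments, which share no library. As a description across genes, which are not replicates, Pearson's r across members between the triplicate and the preliminary ratios was -0.0968 for groups and libraries labelled Tbx5a-deficient and 0.122 for those labelled Tbx5b-deficient at 21 hpf, over 67 genes. At 18 hpf it was -0.208 and -0.0672 over 54 genes. The sign was the same for 35 and 33 of 67 genes at 21 hpf and for 23 and 36 of 54 at 18 hpf. For example, the ratio of *eef1b2* was -0.51 in triplicate Tbx5b-deficient embryos and 0.42 in the preliminary library of that label at 18 hpf, and -0.33 and -0.57 at 21 hpf. Since neither *tbx5a* nor *tbx5b* RNA could check the preliminary labels, these values do not show whether the same knockdowns differed. The presence of eyes, the total of reads and the experiment, and at 18 hpf the annotation, differed together and cannot be told apart.

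**Figure D5:**
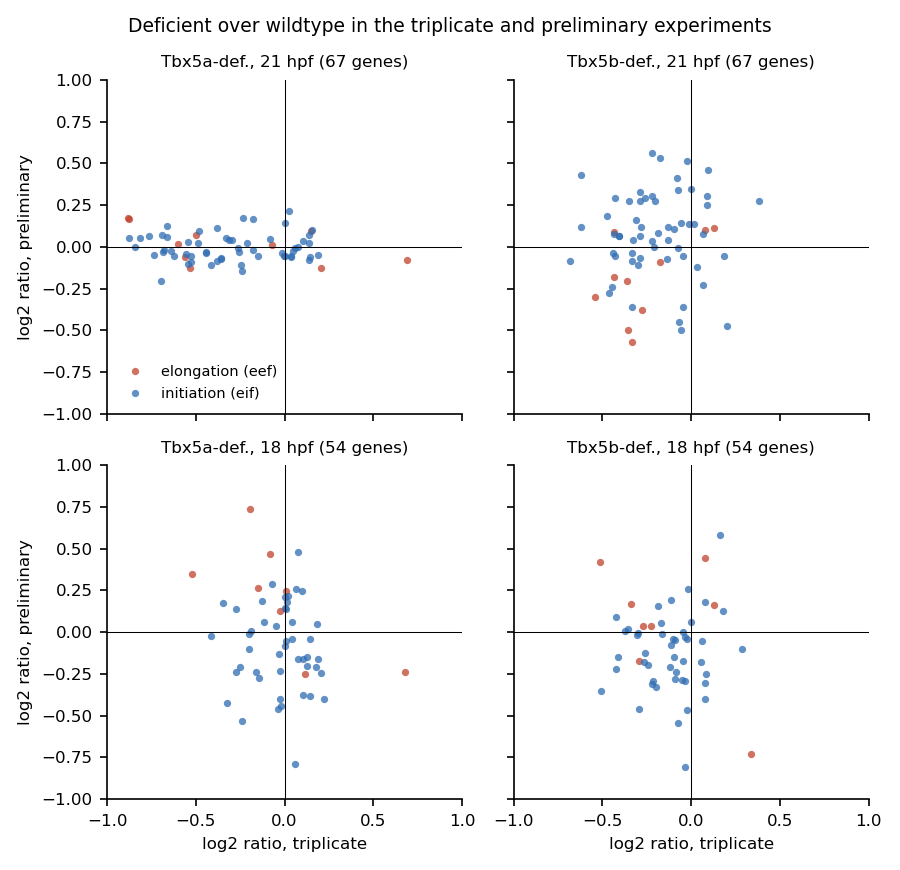
Log2 ratio of FPKM plus 1, deficient over wildtype, in the triplicate (x) and preliminary (y) experiments for each member kept in both, 21 hpf above 18 hpf, with elongation factors in red and initiation factors in blue. The points spread over all 4 quadrants at 18 hpf, and at 21 hpf the Tbx5a panel is flat along the preliminary axis. That panel draws 67 of the 69 preliminary ratios, which lay between -0.20 and 0.25.

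Other genes of the pathway, for termination, poly(A) binding, reinitiation, hypusine and diphthamide synthesis, mTOR signalling, the stress response downstream of eIF2 and mitochondrial translation, were listed as well. Of 48 listed, 41 were found in the triplicate experiment and none was called in its 10 comparisons, in which 0.224% to 1.37% of all genes were called, a share of less than 1 of 41 genes. As deposited, their median log2 ratios at 21 hpf were -0.13, -0.05 and -0.14, against -0.34, -0.22 and -0.34 for the members. The gene *atf4a* encodes a transcription factor translated when eIF2 is phosphorylated. In Tbx5a-deficient embryos at 21 hpf it had 459 (219 to 700.1) FPKM against 1064 (289 to 1839) in wildtype embryos. Its log2 ratio was -1.21 as deposited, with overlapping bounds. This gene and group were picked after the values were seen, and the ratio was not scaled to equal sums. In the preliminary experiment *atf4a* lay higher at 21 hpf in the library labelled Tbx5b-deficient, with 539 against 271 FPKM in that labelled wildtype, and was not called. At 18 hpf 36 of the listed genes were found there, and 1 was called, *atf4b1*, lower in both deficient libraries, beside 1.57% and 1.58% of all genes. A count of 1 in 36 is near those shares, and the 2 comparisons share the wildtype library. It had 271 (197 to 345) FPKM in the library labelled Tbx5a-deficient and 249.5 (182 to 317) in the one labelled Tbx5b-deficient, against 672 (487 to 856) in the shared library labelled wildtype, at log2 ratios of -1.31 and -1.42. Of the 3 preliminary libraries at 18 hpf, the one labelled wildtype also held the highest *eif4ebp1* value.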

How the data were processed

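RNA of pooled zebrafish embryos was sequenced as oligo dT cDNA in single-end reads of 50 bp. The authors aligned reads with TopHat2 2.1.0 and Bowtie2 2.2.5.0, per the submitters' processing notes, and deposited gene levels as FPKM from Cufflinks and Cuffdiff, with lower and upper bounds. In the triplicate experiment the authors gave 1 FPKM value for the 3 libraries of a group. Pooled values replaced the planned fits on single libraries, so groups were compared by log2 ratio and bounds, without a test. The members and lists were chosen with earlier results of these data known. Genes are named when called, highest in their role, among the 2 highest or 2 lowest ratios of a triplicate knockdown comparison or of the wildtype stage comparison, or elongation factors proper. Other genes were named after their values were seen. Alternatives changed the pseudocount, filters, thresholds, averaging and centring. Scaling to equal sums, no pseudocount and leaving out *eef2b* were chosen after seeing the data. RefSeq (GRCz12tu) gave names only, and listed starts were raised by 1. Sequences were not used here. Analyses used Python 3.11.15, numpy 2.4.6, pandas 2.3.3 and matplotlib 3.10.9. Only the rule for calling genes was tested on simulated data, with changes far larger than those reported here. That test does not check the medians or the scaling.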

Additional observations from a re-analysis of the deposited data

How the results depend on the processing

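No paired analysis was possible because the 3 libraries of a triplicate group were deposited as 1 pooled value, and leaving out a library was not possible for the same reason. Of 280 alternative values, 1 count of members called moved. Without the bounds 1 member was called between 21 and 18 hpf in Tbx5a-deficient embryos, *eef2b* at a log2 ratio of -1.05, whose lower bound was 0 at 18 hpf. The difference between the elongation and initiation medians changed sign in 11 of 140 alternatives, 4 of them without a filter on FPKM, 5 with means in place of medians and 2 among members of at least 100 FPKM. Without a filter, genes below 1 FPKM enter the classes, and the pseudocount holds their ratios near 0. The cause of the sign changes was not tested. The largest shift was 0.436, without a filter, in Tbx5a-deficient embryos at 21 hpf. Centring and equal sums leave these differences in place by construction, apart from the pseudocount, and say nothing of their stability. Leaving out *eef2b* shifted them by at most 0.0610, with no change of sign. Depth per library is unknown. For members of at least 10 FPKM the upper bound was at the median 2.55 to 2.74 times the lower bound within a triplicate group. Bounds of that width overlap where 2 groups differ by less.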

Other observations

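The preliminary values at 18 hpf hold 17 further entries of translation factor or Argonaute genes, written in capitals or joined with another gene, that the naming rule leaves out. EIF3F, whose gene was the highest of eIF3 on average in the triplicate experiment, had 577 FPKM in the library labelled Tbx5a-deficient, 476 in the one labelled Tbx5b-deficient and 545 in the one labelled wildtype. EIF1B had 301 FPKM in the library labelled Tbx5a-deficient, 273 in the one labelled Tbx5b-deficient and 289 in the one labelled wildtype. The joined entry of *eif4a1a* with SNORD10 and *senp3b* had 467 FPKM in the library labelled Tbx5a-deficient, 534 in the one labelled Tbx5b-deficient and 547 in the one labelled wildtype. For each of these 3 entries the libraries lay within 1.5-fold of each other. EEF1E1, which despite its name encodes a scaffold protein of the tRNA synthetase complex, had 87.1 FPKM in the library labelled Tbx5a-deficient, 90.4 in the one labelled Tbx5b-deficient and 71.2 in the one labelled wildtype. EIF2C1, an older name of an Argonaute gene, had 5.53 FPKM in the library labelled Tbx5a-deficient, 10.5 in the one labelled Tbx5b-deficient and 3.41 in the one labelled wildtype. EEF1A2 was listed at 0 in all 3 libraries.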
